A study of Mus musculus with 17 samples.

Results

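The expression of 8 genes of synaptic vesicle release was followed through 17 brainstem libraries: Syn1, Syn2, Syp, Sv2a, Syt1, Vamp2, Snap25 and Stx1a. They were taken by name from the deposited tables, which list 78298 genes, and all 8 were found once and passed the filter for testing. The labels give the tissue as locus coeruleus and the animals as male mice of strain C57BL/6; the locus coeruleus is the main noradrenergic nucleus of the brainstem. There were 6 libraries from untreated mice (control), 5 from mice given vindeburnol and 6 from mice given VB-127, which the labels call its derivative. Both compounds were given in water at 20 mg/kg by oral gavage once a day for 5 days, and tissue was collected 24 hours later. No group was labelled as given water by gavage, so an effect of the gavage and one of the compound cannot be told apart. The sources used here do not give the age of the mice.

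Nerve terminals store transmitter in vesicles that dock at the membrane and fuse with it when calcium enters. Fusion is driven by a SNARE complex, in which Vamp2 on the vesicle zips together with Snap25 and Stx1a on the plasma membrane, and Syt1 senses the calcium. Synapsins tether vesicles in a reserve pool, while synaptophysin and Sv2a are membrane proteins of the vesicle. These genes are used by most neurons, and their RNA in bulk tissue is therefore often read as a sign of neuronal content. In bulk samples, fewer neurons and less RNA per neuron cannot be told apart.

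The stretches of 250 bases upstream of the start site are shown for 3 genes. Syp had the highest level of the 6 genes with an entry in the RefSeq promoter table, Stx1a had the lowest, and Syn1 had the only difference between groups with an unadjusted p under 0.05 in limma (vindeburnol against control). The table is on build GRCm38.p6, while the expression files use GRCm39, so these coordinates belong to the former. Capitals mark the letters of motifs that were searched on both strands.
Syn1, chrX:20920919-20921168, minus strand: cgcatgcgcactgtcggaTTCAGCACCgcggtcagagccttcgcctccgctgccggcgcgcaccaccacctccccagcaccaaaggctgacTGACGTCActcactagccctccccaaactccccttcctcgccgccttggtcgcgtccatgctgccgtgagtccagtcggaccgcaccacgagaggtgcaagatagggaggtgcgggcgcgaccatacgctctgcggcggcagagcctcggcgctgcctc
Syp, chrX:7638330-7638579, plus strand: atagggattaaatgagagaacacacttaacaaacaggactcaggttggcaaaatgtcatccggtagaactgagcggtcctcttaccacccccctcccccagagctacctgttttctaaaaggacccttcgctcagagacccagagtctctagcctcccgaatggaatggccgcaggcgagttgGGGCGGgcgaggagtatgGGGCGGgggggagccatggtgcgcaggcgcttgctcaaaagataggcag
Stx1a, chr5:135023232-135023481, plus strand: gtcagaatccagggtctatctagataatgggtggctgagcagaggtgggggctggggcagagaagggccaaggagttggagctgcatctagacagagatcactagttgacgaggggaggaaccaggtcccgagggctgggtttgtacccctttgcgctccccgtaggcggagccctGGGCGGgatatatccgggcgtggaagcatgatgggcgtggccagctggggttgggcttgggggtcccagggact

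In the Syn1 stretch, the first capitals are TTCAGCACC, the left arm of the RE1 element bound by the repressor REST in non-neuronal cells, and the second are TGACGTCA, the cyclic AMP response element. The RE1 arm occurred in 0.301% of 32851 windows of the same length in the table, and the cyclic AMP element in 1.55%. The capitals in Syp (2 copies) and Stx1a (1 copy) are the GC box GGGCGG, which 32.7% of all windows hold. The exact letters of the right arm of RE1, GGACAGC, found in 5.28% of windows, and the TATA letters TATAAA, found in 12.4%, occurred in none of the 6 genes. Matches with differing letters were not counted, so the absence of a right arm near the left arm of Syn1 is not shown. The Syn1 stretch was 68.0% G or C with 27 CpG, against medians of 52.4% and 6 over all windows. A GC box also lay upstream of Syn2 (2 copies), Syt1 and Sv2a (1 each), and the letters CCAAT, found in 33.8% of windows, lay 2 times upstream of Syt1 and in a second window of Syn2. These matches describe letters in the windows and no binding was measured. Snap25 and Vamp2 had no window.

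Levels are in TPM, a unit scaled for transcript length, so genes can be set side by side. By the median over 17 libraries the order was Snap25 at 881 TPM, Syp at 799.8, Vamp2 at 454, Sv2a at 277, Syt1 at 209.6, Syn1 at 193, Syn2 at 163 and Stx1a at 20.5 TPM. The neighbours kept this order, Syp above Vamp2, Vamp2 above Sv2a, Sv2a above Syt1, Syn1 above Syn2 and Syn2 above Stx1a in 17 of 17 libraries. Snap25 exceeded Syp in 10 of 17 libraries and Syt1 exceeded Syn1 in 7 of 17, so those neighbours did not differ beyond their spread. Stx1a, the plasma membrane syntaxin, thus lay far below its SNARE partners.

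**Figure D1:**
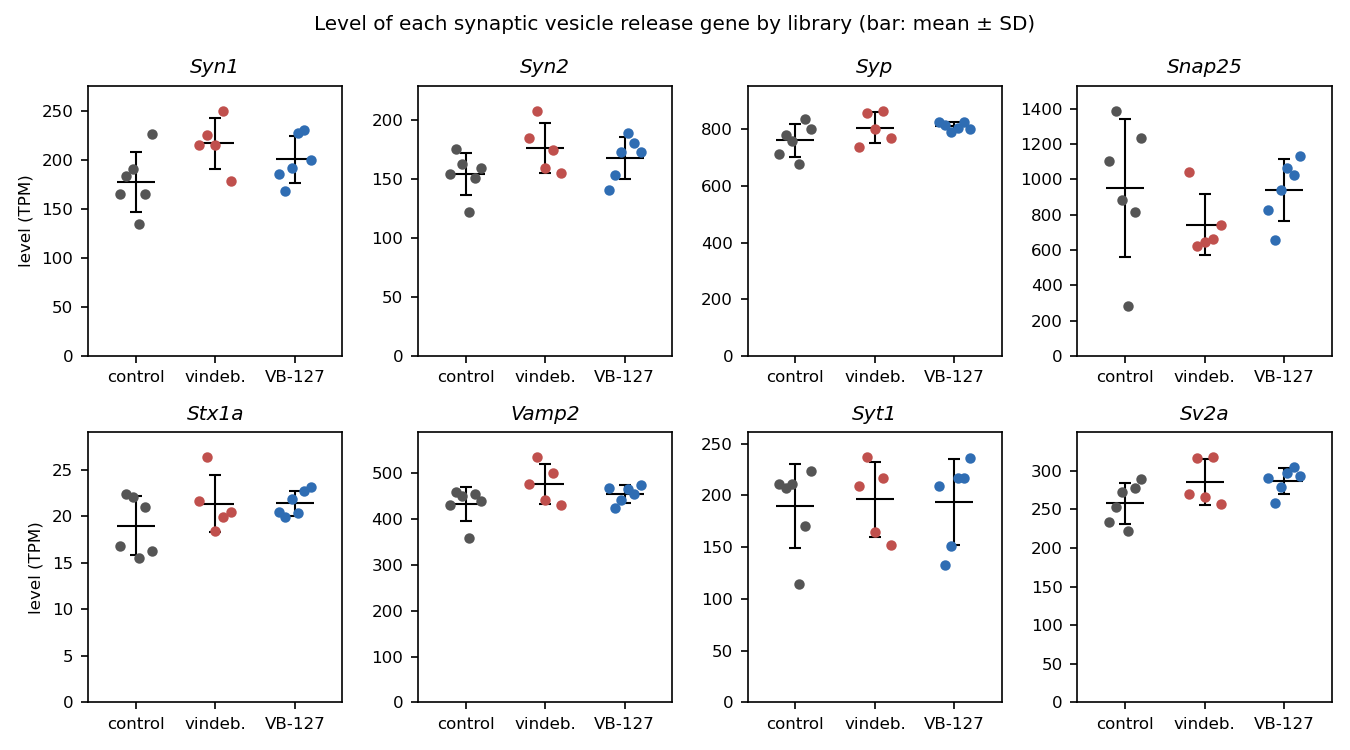
TPM of each gene in every library (points) of the control (n = 6), vindeburnol (n = 5) and VB-127 (n = 6) groups, with the mean ± SD as bars; each panel starts at 0. In every panel the 3 groups overlap, and Snap25 in controls spans 280.2 to 1391 TPM.

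Among the proteins of the vesicle itself, Syn1, which ties vesicles to the cytoskeleton, was at 135, 175 and 227 TPM in controls as the lowest, median and highest value. In the vindeburnol libraries it was at 216, 226, 216, 251 and 179 TPM, and after VB-127 at 169, 196 and 231 TPM. All 5 vindeburnol libraries lay above the control mean of 178 TPM, 4 of them below the highest control, and the groups overlapped. The mean was 178 ± 30.9 TPM in controls (SD, n = 6). After vindeburnol it was 217 ± 26.0 TPM (SD, n = 5), and 201 ± 24.2 TPM with VB-127 (SD, n = 6). The log2 difference of vindeburnol against controls was 0.30 (SE 0.11, 95% interval 0.06 to 0.53; limma, unadjusted p 0.0164, adjusted p 0.535), which did not pass the test. With other scalings of the libraries it ran from 0.21 to 0.24, and without control replicate 4 it was 0.22.

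Syn2, the second synapsin, was at 122, 157 and 176 TPM in controls (lowest, median, highest), at 185, 208, 159, 175 and 156 after vindeburnol and at 141, 173 and 189 after VB-127. The groups overlapped, with log2 differences against controls of 0.19 (95% interval -0.01 to 0.40) and 0.13 (95% interval -0.07 to 0.32), which became 0.13 and 0.060 without control replicate 4. Syp encodes synaptophysin, an abundant vesicle membrane protein, and was at 676, 769 and 837 TPM in controls. It was at 737, 858, 799.8, 866 and 769.8 TPM after vindeburnol, and within the narrow span of 791 to 827 TPM (median 810) after VB-127. All 6 VB-127 values lay inside the range of the controls, whose SD of 58.5 TPM compares with 13.6 TPM after VB-127. This contrast did not hold when TPM was rescaled without Bc1, an RNA whose share of the total varied between libraries. Syp then spanned 954 to 1078 TPM in controls (SD 49.2) and 980 to 1144 TPM after VB-127 (SD 63.1). On the scale as deposited, the log2 differences of Syp against controls were 0.08 (95% interval -0.04 to 0.21) and 0.10 (95% interval -0.02 to 0.21), and 0.052 and 0.063 without control replicate 4.

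Sv2a, a vesicle glycoprotein and the binding site of the drug levetiracetam, was at 222, 263 and 289 TPM in controls as lowest, median and highest. It was at 270.4, 316, 266, 318 and 257 TPM after vindeburnol and at 257, 292 and 305 TPM after VB-127. Of the VB-127 libraries, 5 of 6 lay above the control mean, and the groups overlapped. The log2 difference was 0.16 after VB-127 (SE 0.08, 95% interval -0.00020 to 0.31; adjusted p 0.4905) and 0.15 after vindeburnol (95% interval -0.02 to 0.31; adjusted p 0.628), neither of which passed in limma. Levels of the calcium sensor Syt1 were 115, 209 and 224 TPM in controls, 209.6, 237, 164, 217 and 152 after vindeburnol, and 133, 213 and 236 after VB-127. Every group held both low and high libraries, and the means of 189.6 ± 40.8 (SD, n = 6), 196 ± 36.2 (SD, n = 5) and 194 ± 41.6 TPM (SD, n = 6) differed by less than 1 SD. Its log2 differences of 0.062 and 0.034 turned to -0.075 and -0.10 without control replicate 4.

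Of the SNARE genes, the vesicle SNARE Vamp2 was at 359, 444 and 459 TPM in controls, at 476, 535, 441, 500.1 and 431 after vindeburnol and at 424, 460.2 and 473 after VB-127. Of the vindeburnol values 3 of 5 lay above every control, as did 3 of 6 VB-127 values. Rescaled without Bc1, a neuronal RNA whose share of the TPM total varied between libraries, 2 vindeburnol values and 0 VB-127 values did. Its log2 differences against controls were 0.14 (95% interval -0.0021 to 0.29) and 0.08 (95% interval -0.06 to 0.21), and without control replicate 4 they were 0.090 and 0.025. Stx1a was at 15.5, 18.9 and 22.4 TPM in controls, at 21.6, 26.4, 18.4, 19.95 and 20.5 after vindeburnol and at 19.9, 21.2 and 23.1 after VB-127. All 6 VB-127 values of Stx1a exceeded the control mean of 19.0 TPM, while 4 of them lay below the highest control. Its differences were 0.17 (95% interval -0.08 to 0.41) and 0.18 (95% interval -0.05 to 0.41).

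Snap25, the membrane SNARE that supplies a pair of helices to the complex, varied most. It was at 1103, 1391, 881, 280.2, 816 and 1236 TPM in control replicates 1 to 6. It was at 1044, 625.1, 647, 665 and 740.1 TPM in vindeburnol replicates 1 to 5, and at 827, 658, 939, 1064, 1026 and 1135 TPM in VB-127 replicates 1 to 6. Control replicate 4 was the lowest of all libraries and control replicate 2 the highest, a 4.96-fold span within the untreated group alone. The log2 difference was -0.22 after vindeburnol (SE 0.33, 95% interval -0.92 to 0.48) and 0.12 after VB-127 (SE 0.31, 95% interval -0.55 to 0.79) against controls, with adjusted p of 0.888 and 0.893 in limma. Without control replicate 4 these became -0.54 (95% interval -0.92 to -0.17, adjusted p 0.624) and -0.20 (95% interval -0.56 to 0.16, adjusted p 0.850).

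For vindeburnol against controls, 0 of the 8 genes passed an adjusted p under 0.05 in limma, and of all 16153 genes tested 0% passed. At an unadjusted p under 0.05, 1 of the 8 genes passed (Syn1, higher) against 8.17% of all genes, 6.95% higher and 1.22% lower. By the mean of log2(TPM + 1), 7 of the 8 were higher in value, as were 69.7% of all genes, and the median log2 difference of the 8 was 0.14 against 0.08 for all genes. With median-ratio scaling, which centres the libraries on the bulk of their genes, 5 of the 8 were higher and the medians were 0.06 and 0.0028. Syp and Syt1 then changed sign. With quantile normalization 6 of the 8 were higher, against 48.9% of all genes. Without Bc1 it was 7 of the 8 (57.0% of all genes), and without Bc1 and mitochondrially encoded genes 6 of the 8 (52.3%). No gene of the 8 had groups that did not overlap, where 0.458% of all genes did in the higher direction and 0.0619% in the lower.

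For VB-127 against controls, 0 of the 8 genes passed, and 0.00619% of all genes did, which is 1 gene, the predicted Gm28119. None of the 8 had an unadjusted p under 0.05 in limma, against 10.2% of all genes, 9.67% higher and 0.532% lower. By the mean of log2(TPM + 1) all 8 were higher in value, as were 79.4% of all genes, although the mean TPM of Snap25 was lower (941 against 951 TPM), with a median of 0.12 against 0.11 for all genes. With median-ratio scaling, the all-gene median of 0.11 became 0.0078 and 4 of the 8 were higher, with a median of -0.00015. Syp, Snap25, Vamp2 and Syt1 then changed sign. With quantile normalization 7 of the 8 were higher (median 0.051), against 50.8% of all genes (median 0.0026). Without Bc1 it was 7 of the 8 (66.2% of all genes), and without Bc1 and mitochondrially encoded genes 6 of the 8 (62.0%). Groups without overlap were found for 0 of the 8, against 0.656% (higher) and 0.0124% (lower) of all genes.

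The compounds, parent and derivative per the labels, were given at the same dose and schedule and were compared with each other in the 8 genes. In 8 comparisons of vindeburnol with VB-127, 0 passed (0% of all genes), and none had an unadjusted p under 0.05 in limma, against 3.38% of all genes, 0.891% higher and 2.49% lower. In value, 4 were higher after vindeburnol, as were 38.9% of all genes, and the median was 0.01 against -0.03 for all genes. With median-ratio scaling 7 of the 8 were higher, as were 50.4% of all genes, and with quantile normalization 5 of the 8 (49.0%). Without Bc1 it was 4 of the 8 (41.1% of all genes), and 4 again without Bc1 and mitochondrially encoded genes (39.9%). The intervals allowed differences of -0.13 to 0.11 for Syp, -0.17 to 0.15 for Sv2a, -0.08 to 0.21 for Vamp2 and -0.14 to 0.27 for Syn2 on the log2 scale. They were wider for Syn1 (-0.12 to 0.35), Stx1a (-0.25 to 0.23), Syt1 (-0.35 to 0.40) and Snap25 (-1.04 to 0.36). These intervals do not show that the compounds act alike, and the comparisons with controls share the same 6 control libraries.

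**Figure D2:**
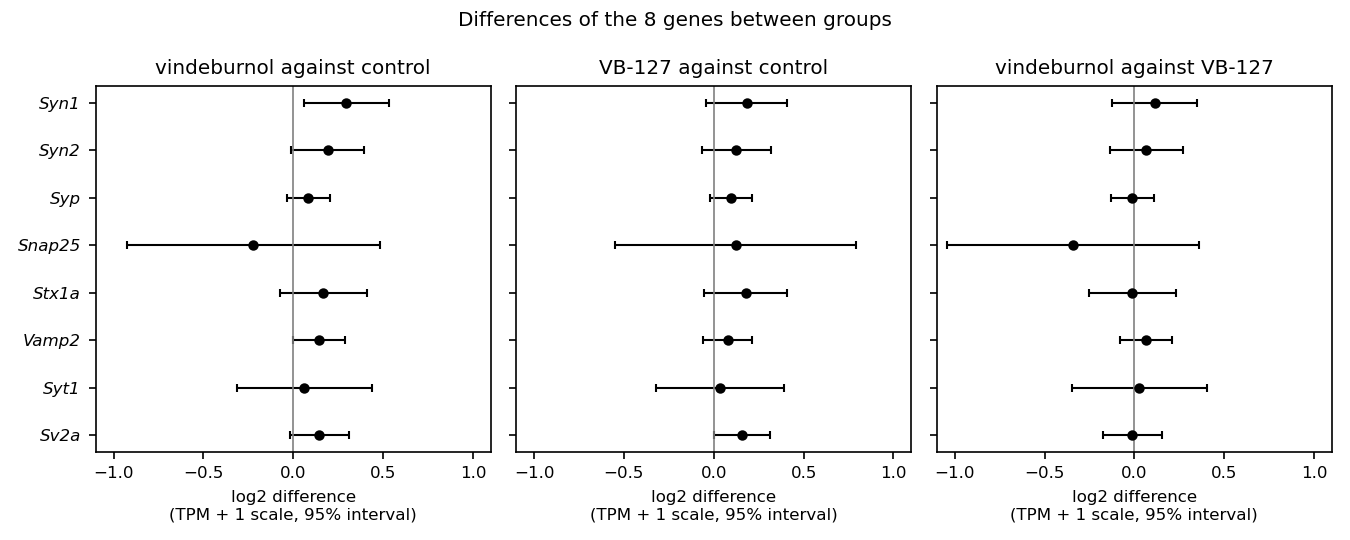
Difference of each gene between groups on the log2(TPM + 1) scale (points) with its 95% interval from limma (bars), for the 3 comparisons. Of 24 intervals, that of Syn1 for vindeburnol against controls (0.06 to 0.53) lies wholly above 0 before adjustment, and the Snap25 intervals are the widest.

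Genes that work beside these 8 gave the same counts of calls. Of 22 other vesicle proteins, 24 genes of the fusion machinery, 17 of the active zone and 22 of vesicle recycling, 0 passed in any of the 3 comparisons. In value, 13, 19, 14 and 21 of them were higher after vindeburnol than in controls, and 14, 24, 16 and 20 after VB-127. The shares of all genes higher were 69.7% and 79.4%, and the vesicle proteins lay below both, at 59.1% and 63.6%. With median-ratio scaling, under which 50.8% and 52.4% of all genes were higher, the counts in the same order fell to 8, 12, 8 and 10 after vindeburnol and 6, 15, 12 and 10 after VB-127. With quantile normalization (48.9% and 50.8% of all genes) they were 9, 13, 8 and 12 after vindeburnol and 9, 17, 10 and 16 after VB-127. Doc2b, a calcium sensor of spontaneous release, was at 18.95 ± 2.06 TPM after vindeburnol (SD, n = 5) against 14.0 ± 2.88 in controls (SD, n = 6), differing by 0.43 on the log2 scale (adjusted p 0.488 in limma). Napa, the adaptor that recruits the enzyme for SNARE disassembly, had differences of 0.28 (adjusted p 0.507) and 0.27 (adjusted p 0.461) after vindeburnol and VB-127. Rab3b, a vesicle GTPase, was at 24.5 ± 4.48 TPM after vindeburnol (SD, n = 5) against 31.5 ± 5.12 in controls (SD, n = 6), and Sncb, beta-synuclein, at 739 ± 35.5 against 658 ± 66.5 TPM.

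At the active zone, the priming factor genes Unc13a and Unc13b had differences of 0.39 and 0.56 after VB-127 against controls, each with an adjusted p of 0.4697 in limma. For vindeburnol against controls Unc13a was at 0.29 (adjusted p 0.644) and the scaffold gene Ppfia3 at 0.16 (adjusted p 0.618). In the recycling list, dynamin (Dnm1), which pinches off endocytosed vesicles, was at 637 ± 22.6 TPM after vindeburnol (SD, n = 5) against 555 ± 53.0 in controls (SD, n = 6), with an adjusted p of 0.507. The clathrin adaptor subunit genes Ap2a1 and Ap2b1 were both at 0.22 after VB-127 against controls, with adjusted p of 0.461 and 0.4697. The proton pump subunit gene Atp6v0a1 was at 0.19 (adjusted p 0.484) and Snap47 at 0.14 (adjusted p 0.479) in that comparison. Between the compounds, Sv2c, Syt11, Unc13b, Cask and Ap2m1 were lower and Doc2b, Sncb and Sh3gl3 higher in value after vindeburnol, all with an adjusted p of 0.999884.

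A plain ratio of paralogs within a library does not depend on the total to which the library was scaled. Vamp2 and Vamp1, the vesicle SNARE prominent in brainstem and spinal cord, were at a ratio of 0.956 ± 0.0776 (SD, n = 17). Syt1 exceeded Syt2, a fast calcium sensor prominent in the hindbrain, by a ratio of 1.84 ± 0.278, and Sv2a was at 12.3 ± 1.93 times Sv2b. Snap25 was at 127.4 ± 29.1 times Snap23, its counterpart outside neurons, and Syn2 at 0.846 ± 0.0825 of Syn1. The log2 ratios that were tested had 1 TPM added to each gene, so they still depend on scale where a paralog is low, as Snap23 is. In 15 two-sided exact permutation tests of these log2 ratios, 5 ratios in 3 comparisons, none passed, with p adjusted over the 18 tests planned. The smallest p was 0.0736 (adjusted p 0.672), for Sv2a over Sv2b at 13.5 ± 1.36 after vindeburnol (n = 5) against 11.1 ± 2.46 in controls (n = 6), a log2 difference of 0.30. Control replicate 6 had the lowest ratio, 7.30, with Sv2b at 39.6 TPM, and without it the difference was 0.20.

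The next question was whether the 8 genes gave the same reading of a library. Bc1, a small RNA of neurons that holds an A-rich stretch and codes for no protein, took 16.1% to 35.3% of the TPM total, the most in control replicate 4, and any gene's TPM falls when that share grows. Values were therefore also rescaled without Bc1. The sum of the 8 genes ran from 1925 TPM in control replicate 4 to 3472 TPM in control replicate 2, a 1.804-fold span, and from 2974 to 4579 TPM (1.54-fold) without Bc1. Group means of the sum were 2943 ± 552 TPM for controls (SD, n = 6), 2924 ± 205 for vindeburnol (SD, n = 5) and 3078 ± 270.3 for VB-127 (SD, n = 6), and the groups overlapped. Snap25 made up 14.6% to 40.1% of the sum. The sum of the other 7 genes without Bc1 spanned 2541 to 2921 TPM, or 1.15-fold, with a coefficient of variation of 3.80% over the 17 libraries. Its means were 2636 ± 74.5 TPM for controls (SD, n = 6), 2773 ± 139 for vindeburnol (SD, n = 5) and 2707 ± 48.1 for VB-127 (SD, n = 6). Snap25 varied most of the 8 in these same data, so a more even sum of the other 7 follows in part from leaving it out. An even sum also does not show that the 7 genes moved together. The sum of a list of 20 neuronal markers, called pan-neuronal here and including none of the 8, spanned 8216 to 9621 TPM without Bc1, or 1.17-fold. That list also holds Gad1 and Gad2, which are genes of GABA neurons and not of all neurons.

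**Figure D3:**
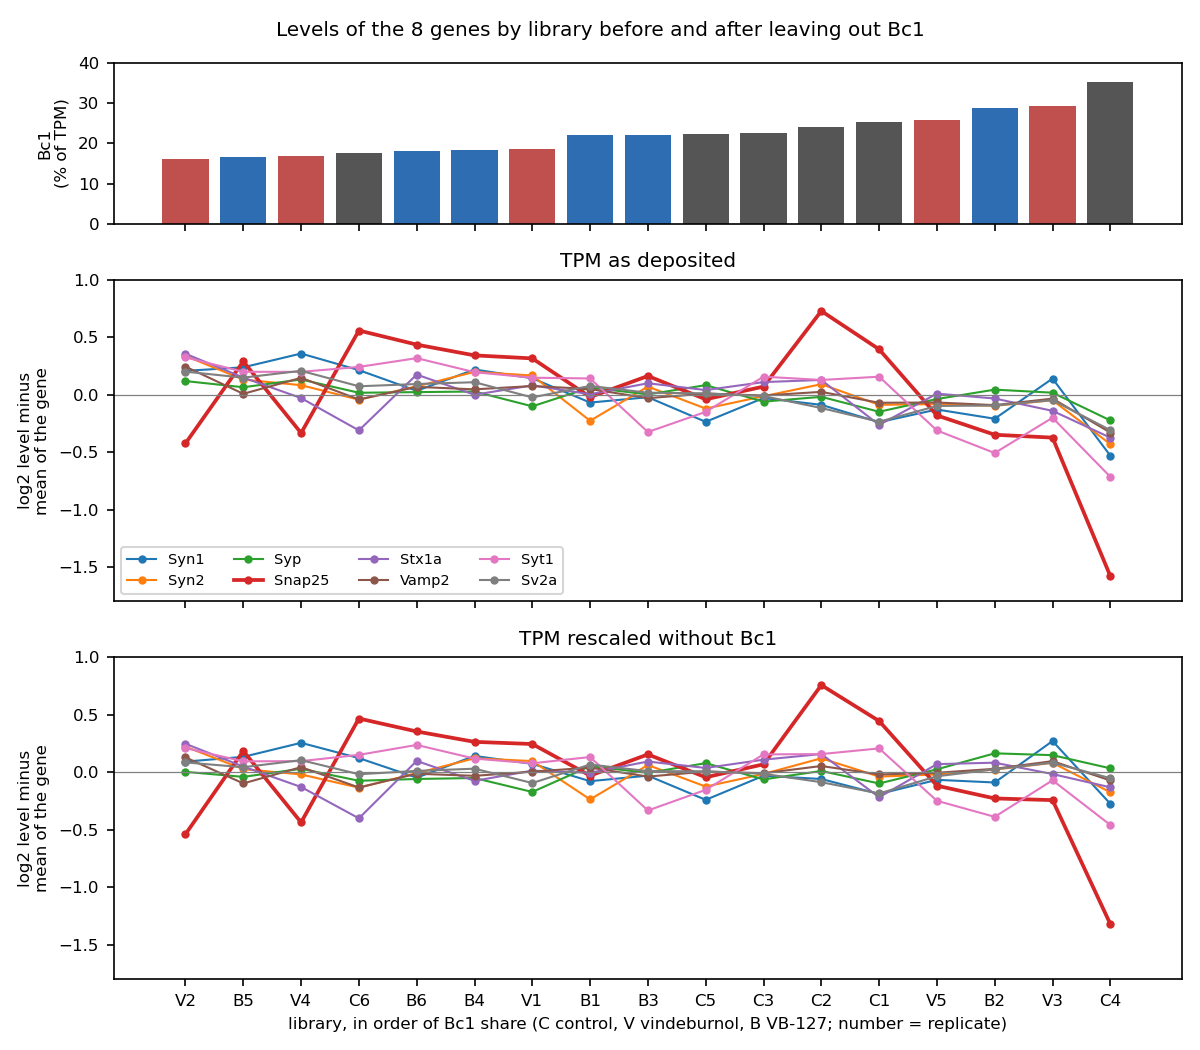
Bars in the top panel give Bc1 as percent of the TPM total of each library, in order of that share. Lines below give the log2 level of each gene minus its mean over 17 libraries, as deposited and rescaled without Bc1; most lines flatten after rescaling, while Snap25 still spans 433 to 1834 TPM.

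After rescaling, the spread of the genes over libraries differed widely. The SD of the log2 level was 0.07 for Vamp2 and Sv2a, 0.09 for Syp, 0.12 for Syn2, 0.15 for Stx1a, 0.16 for Syn1, 0.23 for Syt1 and 0.48 for Snap25. The median over 1607 genes with a mean of at least 100 TPM was 0.14. Vamp2 was more even across libraries than nearly all of these genes, since 1.68% of them had a smaller SD, whereas 98.1% had a smaller SD than Snap25. The ratio of the highest to the lowest library was 1.20 for Vamp2, 1.22 for Sv2a, 1.26 for Syp, 1.62 for Syt1 and 4.24 for Snap25.

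Pearson's r between 2 of the genes over 17 libraries, on log2(TPM + 1), had a median of 0.66 over the 28 pairs, from 0.22 (Syp with Snap25) to 0.86 (Syp with Sv2a). By a permutation test with Benjamini-Hochberg adjustment over 104 relations, 17 of 28 pairs passed with Pearson's r and 10 with Spearman's rho. Rescaled without Bc1, the median was 0.20 and the range -0.55 to 0.58, with 2 pairs passing by Pearson's r and 1 by Spearman's rho. The 2 were Stx1a with Vamp2 (r 0.58, adjusted permutation p 0.0464) and Snap25 with Syt1 (r 0.56, adjusted permutation p 0.0493). Leaving out the 2 libraries farthest from the median of the first gene of each pair gave r of 0.36 and 0.28. Such a cut narrows the range of that gene, which can itself lower r. Without control replicate 4, r was 0.56 and 0.32, and within groups it was 0.61 for both pairs. Spearman's rho of the 2 pairs was 0.38 and 0.50, with adjusted permutation p of 0.266 and 0.113. The pair that passed by Spearman's rho alone was Syp with Snap25 (rho -0.68, adjusted permutation p 0.0242; r -0.46). On the deposited scale the share of Bc1 was negatively related to all 8 genes (median r -0.79, 7 of 8 passing), and 1 of 8 passed after rescaling, Syt1 (r -0.71, rho -0.50, adjusted permutation p 0.00817 and 0.113). The same relations were not computed for all genes or for other gene pairs. The counts that passed therefore cannot be read as particular to these 8 genes. Without control replicate 4 the median r of the pairs was 0.45 as deposited and 0.025 rescaled.

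**Figure D4:**
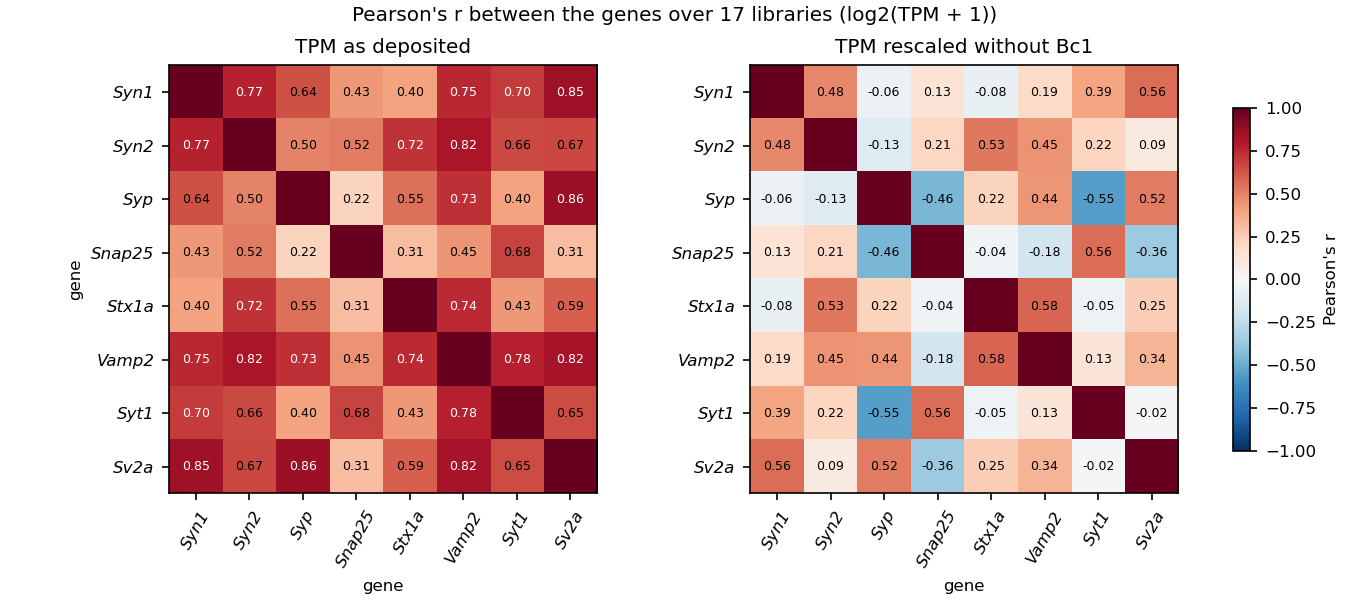
Pearson's r of each pair of the 8 genes over 17 libraries, from log2(TPM + 1) as deposited (left) and rescaled without Bc1 (right), with the value in each cell. The deposited values are positive in 28 of 28 pairs with a median of 0.66, and the rescaled ones in 18 of 28 with a median of 0.20.

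The genes were also set against a measure of base composition. For each library, the genes were ranked by the GC content of their transcript, and the median deviation of those under the lower quartile was taken minus that of those over the upper quartile, leaving out the 8 genes; it ran from -0.24 in vindeburnol replicate 3 to 0.26 in control replicate 1 on the log2 scale. Syp fell as this measure rose, with r of -0.88 and rho of -0.93 over 17 libraries (adjusted permutation p 0.000446 and 0.00052). Its r was -0.83 without the 2 libraries farthest from the median of the measure and -0.89 within groups. Syt1 rose with it (r 0.70, rho 0.72, adjusted permutation p 0.00817 and 0.0134; r 0.68 without the 2 farthest), and so did Snap25 (r 0.65, rho 0.73, adjusted permutation p 0.0153 and 0.0134; r 0.67 without the 2 farthest). The transcripts of Snap25 and Syt1 had the lowest GC content of the 8, at 43.4% and 45.8%, and those of Syp, Syn1 and Stx1a the highest, at 56.6%, 57.9% and 58.5%. For Syn1 and Stx1a, r with the measure was 0.00099 and -0.20, and neither passed. The part of base composition in these levels was not tested.

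**Figure D5:**
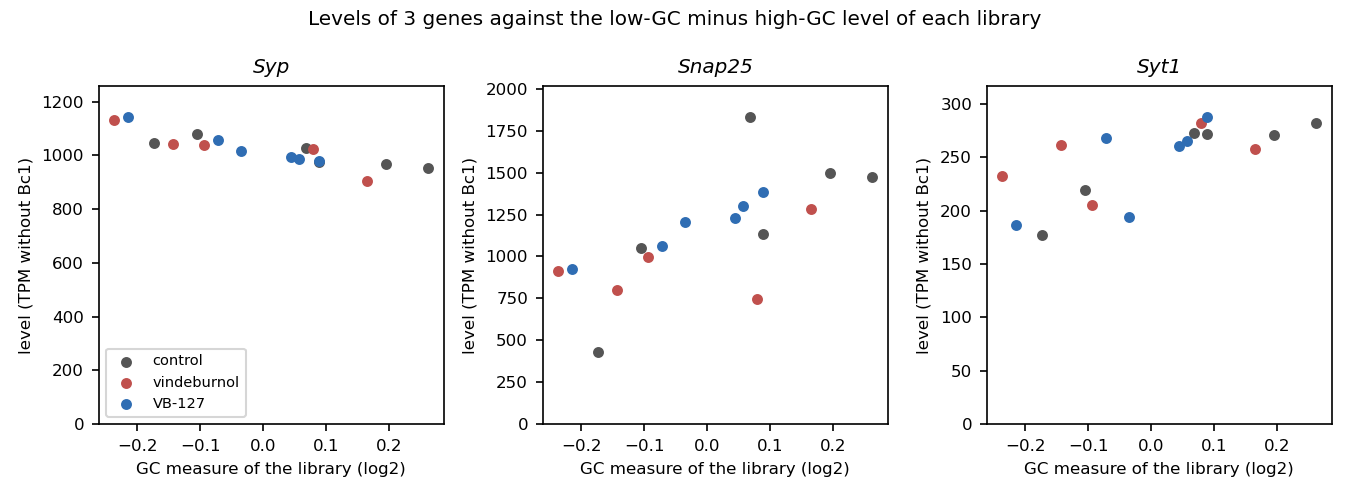
TPM rescaled without Bc1 of Syp, Snap25 and Syt1 in each library (points, coloured by group) against the level of low-GC genes minus that of high-GC genes in the same library (log2). Syp falls along the axis (r -0.88) while Snap25 and Syt1 rise (r 0.65 and 0.70), with all 3 groups spread along it.

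A like measure of long against short transcripts, from -0.41 in control replicate 4 to 0.21 in control replicate 6, was related to Syt1 (r 0.85, rho 0.66, adjusted permutation p 0.000446 and 0.0271), Syp (r -0.67, rho -0.72, adjusted permutation p 0.0139 and 0.0134) and Syn1 (r 0.59, rho 0.63, adjusted permutation p 0.0375 and 0.0398). Without the 2 farthest libraries these were 0.72, -0.67 and 0.43. The mean log2 level of the pan-neuronal list was related to Snap25 (r 0.76, rho 0.62, adjusted permutation p 0.00578 and 0.0420; r 0.48 without the 2 farthest and 0.54 without control replicate 4). For Syt1 it gave r of 0.60 and rho of 0.51 (adjusted permutation p 0.0315 and 0.113), and r was 0.39 without the 2 farthest. For the other 6 genes r with the pan-neuronal list lay between -0.45 and 0.26. For the myelin list r lay between -0.34 and 0.27, and 0 of 8 relations passed by either coefficient.

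Genes whose pattern was most like each of the 8 were ranked by Pearson's r over 17 libraries, rescaled without Bc1, among 9025 genes with a mean of at least 10 TPM. The 8 genes themselves and genes with predicted names (Gm followed by digits, or ending in Rik) had been left out of the ranking. For Snap25 the nearest were Napb at 0.99, the neuronal calcium sensor Vsnl1 at 0.97 and Tmem47 at 0.97. Napb was at 52.5 TPM in control replicate 4 and 166 TPM in control replicate 2, the same lowest and highest libraries as Snap25, and Vsnl1 was at 167 and 614 TPM there. Both were picked for their likeness to Snap25 in these same libraries, so the shared extremes follow from that choice. For Syt1 they were Dnajc6, the auxilin that uncoats clathrin vesicles, at 0.95, Ttll7 at 0.92 and Pcdh9 at 0.92. For Syp they were Tmem192 at 0.94, the ribosomal protein gene Rpl3 at 0.93 and Fkbp8 at 0.92. Syn1 was nearest to the splicing factor gene Prpf8, Atp6v0a1 and Rasgrf1 (0.91, 0.90 and 0.90), and Syn2 to the neuronal pentraxin gene Nptx1, Fibcd1 and Nptx2 (0.90, 0.86 and 0.85). Stx1a was nearest to Trappc2l, Tmub2 and Plvap (0.89, 0.86 and 0.84), Vamp2 to Samd14, Nell1 and Sap30bp (0.84, 0.82 and 0.81), and Sv2a to Nectin1, Zfp385a and Bag6 (0.92, 0.88 and 0.87). No gene was named for more than 1 of the 8.

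The series' libraries had between 21016 and 26993 genes above 0. The defining markers of the labelled region were low. Dbh, which makes noradrenaline, and its transporter gene Slc6a2 had medians of 1.08 and 0.300 TPM and were at 0 in 3 and 4 libraries, with Dbh up to 18.9 TPM in control replicate 1. All 20 markers of the pan-neuronal list were above 0 in every library, and so was every one of 11 myelin markers, whose summed level spanned 6414 to 10581 TPM in controls, 7133 to 8652 TPM with vindeburnol and 7901 to 10277 TPM with VB-127. The summed level of 5 erythrocyte genes was 896 to 2042 TPM in controls, 1411 to 2525 TPM with vindeburnol and 1539 to 2346 TPM with VB-127, and all 5 were higher in value with each compound. Dbh averaged 6.08 ± 7.70 TPM in controls (SD, n = 6), with 0.411 ± 0.736 for vindeburnol (SD, n = 5) and 0.930 ± 0.914 for VB-127 (SD, n = 6). Of 5 noradrenergic genes tested, 5 were lower in value than controls with vindeburnol and 3 with VB-127, while 7 and 6 of 7 cerebellar markers were higher. Of all genes tested, 69.7% were higher in value with vindeburnol and 79.4% with VB-127. The erythrocyte and cerebellar counts are to be read beside those shares. No marker in these lists passed in limma. The part of tissue makeup in the levels of the 8 genes was not tested. Of genes that overlap a member in GENCODE M21, Araf and Timp1 lie on the strand opposite Syn1 (median 155 and 0.284 TPM) and Timp4 on the strand opposite Syn2 (30.9 TPM). The library kit keeps strand, but the sources used here do not say whether counting used it, so reads shared by such pairs are uncertain.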

How the data were processed

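Poly(A) RNA was sequenced in 17 libraries, prepared with a strand-keeping kit per the labels' protocols. Reads were aligned with STAR and quantified with Salmon on GRCm39, per the submitters' processing notes. The authors deposited TPM for 78298 genes per library. Read depth cannot be recovered from TPM and is unknown, so all errors come from the spread between libraries. The scale of analysis was log2(TPM + 1), where the pseudocount of 1 makes changes of genes with low values look smaller. Genes at or above 1 TPM in at least 5 libraries were tested, which left 16153.

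Group was the sole term of a linear model of all 17 libraries in limma 3.58.1 under R 4.3.3, moderated by eBayes with a trend and robustly. Two-sided p-values were adjusted by Benjamini and Hochberg over every gene tested, a gene passed at an adjusted p under 0.05, and intervals are at 95%. The fit was checked on simulated data. Paralog ratios were compared with exact permutation tests, and correlations used 100000 permutations (Python 3.11.15, scipy 1.17.1). The named genes were the 8 genes in every comparison, their paralogs and overlapping genes, the 2 genes with the smallest p per pathway list and comparison among those averaging 2 TPM or more, and the 3 genes most like each of the 8 in pattern. Araf and Gm28119 were named after their values were seen. The 8 genes, the lists and the rules were chosen with earlier results of these data known.

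Transcript length and GC content came from GENCODE M21 on GRCm38, by gene identifier, and 8933 of 9293 genes with a mean of at least 10 TPM (96.1%) had a transcript. Upstream sequence came from the RefSeq promoter table, in which 6 of the 8 genes were found; the start site and the bases after it were left out. Whether libraries came from separate animals is not in the labels, so p-values measure the spread between these samples, which may be technical. Of the planned results, 1 paralog ratio and 1 gene that the rule named are not reported here. A second table of the whole series was not used here.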

Additional observations from a re-analysis of the deposited data

Results flagged for a closer look

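Within each group, the highest and the lowest library were compared with the others for the 8 genes, their ratios and their sums, in 42 sets of values. Chance alone marks about 1 in 20 such sets, and 3 were marked. Snap25 was at 1044 TPM in vindeburnol replicate 1, far above the other 4 vindeburnol libraries at 625.1 to 740.1 TPM. Vamp2 was at 359 TPM in control replicate 4, below the other 5 controls at 430.1 to 459 TPM. The summed level of the 8 genes was 1925 TPM in the same library, against 2893 to 3472 TPM in the other controls; Bc1 took 35.3% of its TPM, the highest share of the 17 libraries. Rescaled without Bc1, Vamp2 in control replicate 4 was at 555 TPM and lay within the 532 to 606 TPM of the controls.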

How the results depend on the processing

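None of the 8 genes passed under any alternative, including each library left out in turn; the smallest adjusted p over 632 alternatives of their differences in limma was 0.324. Of these, 54 changed sign, and the cause was not tested. For vindeburnol against controls, 1 of all genes passed with a pseudocount of 5, without Bc1, without Bc1 and mitochondrial genes, with library weights, with no trend or robust moderation, and with a myelin or a pan-neuronal covariate. For VB-127 against controls, 0 passed with a pseudocount of 0.1, no filter, a filter at 5 TPM, a pan-neuronal covariate or the replicate block, 2 passed with the compared groups alone or without control replicates 1 and 6, and 3 with library weights. With 1 library left out, 0 passed for vindeburnol against controls, 0 to 1 for VB-127 against controls and 0 between the compounds.

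Differences that changed sign were the following. For vindeburnol against controls, Snap25 was at 0.0058 without control replicates 1 and 6, Syp at -0.0018 with median-ratio scaling, and Syt1 at -0.024 with median-ratio scaling, -0.0053 with quantile normalization, -0.018 without Bc1 and mitochondrial genes, -0.082 with library weights and -0.045 with the pan-neuronal covariate. For VB-127 against controls, median-ratio scaling gave Vamp2 at -0.046, Snap25 at -0.0027, Syp at -0.028 and Syt1 at -0.0896. Syt1 was at -0.043 with quantile normalization, -0.033 without Bc1, and Syt1 and Vamp2 at -0.051 and -0.0072 without Bc1 and mitochondrial genes. The myelin covariate gave Snap25 at -0.11 and Syt1 at -0.10, and the pan-neuronal covariate gave -0.13 for both. Between the compounds, Stx1a was at 0.025 with median-ratio scaling, 0.022 with quantile normalization, 0.082 with the myelin and 0.0063 with the pan-neuronal covariate; Syp was at 0.026 with median-ratio scaling and 0.025 with the myelin covariate; Sv2a was at 0.027, 0.059 and 0.0091 with median-ratio scaling, the myelin and the pan-neuronal covariate; and library weights gave Syn2 at -0.0045 and Syt1 at -0.14. Without control replicates 1 and 6, the log2 ratio of Snap25 to Snap23 was 0.094 for vindeburnol and 0.22 for VB-127 against controls, and Vamp2 to Vamp1 was -0.053 for VB-127.

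With 1 library left out, the differences that crossed 0 ran from -0.075 to 0.15 for Syt1 with vindeburnol, from -0.20 to 0.26 for Snap25 and -0.10 to 0.14 for Syt1 with VB-127, and between the compounds from -0.086 to 0.0385 for Stx1a, -0.038 to 0.021 for Syp, -0.074 to 0.11 for Syt1 and -0.051 to 0.026 for Sv2a. Ratios that crossed 0 were, with vindeburnol, Vamp2 to Vamp1 (-0.0040 to 0.10) and Syt1 to Syt2 (-0.065 to 0.072), with VB-127, Vamp2 to Vamp1 (-0.058 to 0.031) and Snap25 to Snap23 (-0.20 to 0.0901), and between the compounds Syn2 to Syn1 (-0.091 to 0.0099). The median correlation of the gene pairs was 0.093 with median-ratio scaling, 0.34 with quantile normalization and 0.19 without the 10 most abundant genes, alternatives chosen after seeing the data. With 1 library left out it ran from 0.45 to 0.68 as deposited and from 0.025 to 0.27 without Bc1, the lowest without control replicate 4 in both cases.

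The labels do not say whether libraries with the same replicate number in different groups shared a litter or a day. Their deviations correlated between -0.0945 and 0.111 for vindeburnol and controls, -0.195 and 0.0895 for VB-127 and controls, and -0.0961 and 0.0165 for the compounds. Such low values cannot show that nothing was shared. With the replicate block, 0 genes passed in each comparison, and Sv2a changed sign between the compounds, to 0.010. Depth is unknown, so what it limits could not be given.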

Other observations

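Paralogs of the 8 genes covered a wide range of levels over the 17 libraries. Snap47, a SNARE of the Snap25 family that lacks the usual membrane anchor, was at 339 ± 24.7 TPM (SD, n = 17), between 281 and 377 TPM, while Snap29 and Snap23, which act in membrane traffic of most cells, were at 9.40 ± 1.31 and 6.92 ± 1.505 TPM. Sypl1, the synaptophysin relative found outside neurons, was at 35.2 ± 4.59 TPM, and Synpr, a synaptophysin relative of vesicles, at 22.2 ± 5.96 TPM. Syn3, the third synapsin, was at 5.68 ± 1.95 TPM, and Sv2c, prominent in basal ganglia and midbrain, at 10.3 ± 3.21 TPM with a span of 4.88 to 18.9 TPM. Sv2b was at 39.6 TPM in control replicate 6, against 18.9 to 27.0 TPM in the other 16 libraries. In limma, 0 of 13 paralogs passed in any of the 3 comparisons.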
